A study of Mus musculus with 16 samples.

Results

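The comparison set regulatory T cells (Treg) against CD25- CD4+ T cells from the spleens of the same 4 wild-type mice. The members were the 4 Treg and 4 CD25- libraries labelled TRaWT, 8 of the 16 libraries of the series, chosen by genotype and cell type and joined within an animal by the animal number in the library names. The other 8 libraries came from TRaGS mice, whose thyroid hormone receptor alpha cannot bind DNA, and the TRaWT mice were their wild-type littermates with no transgene or treatment named. CD4+ cells were enriched magnetically from splenocytes and sorted into a CD25+ fraction, labelled Treg, and a CD25- fraction, labelled naive and called CD4 here. The labels name no gate on Foxp3 or on naive and memory markers. The labels used here give neither the age nor the sex of the mice.

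Treg are the CD4+ T cells that hold immune responses to self in check. Their identity depends on the transcription factor Foxp3, and they carry much of the high-affinity interleukin receptor chain CD25, encoded by Il2ra, which binds the growth factor Il2 that conventional T cells release. They act through surface molecules such as Ctla4, which takes costimulatory ligands off antigen-presenting cells, through adenosine made by the ectoenzymes CD39 and CD73, and through activation of latent TGF-beta held on their surface. Resting conventional CD4 T cells instead keep a program of quiescence and recirculation under Tcf7, Lef1, Foxo1 and Klf2.

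Library preparation captured the 3' end of each transcript, so a gene's reads should scale little with its length, and reads recovered from the deposited tables came to between 2869194 and 3684977 in CD4 and between 2912038 and 3884565 in Treg. The noncoding gene Gm42418 made up 27.1%, 29.6%, 35.1% and 41.1% of the CD4 libraries of animals 1 to 4 and 24.2%, 25.2%, 30.4% and 33.0% of their Treg libraries, so its share was lower in Treg in every animal. The number of genes with a read was 11951, 11756, 11974 and 12140 in CD4 and 13322, 12589, 12085 and 12518 in Treg, higher in Treg in every animal. The part of these library differences in the results was not tested beyond the fits scaled without Gm42418 and thinned to equal depth, which called 572 genes (337 higher and 235 lower) and 562 genes (297 higher and 265 lower), against 578 (293 higher and 285 lower) in the fit used here. Over the tested genes, the CD4 libraries of animals 3 and 4 had a higher median Spearman correlation with the Treg libraries (0.848 and 0.865) than with the other CD4 libraries (0.823 and 0.837), whereas the other 6 libraries were closest to their own subset. The numbers of called genes without each animal are given in the closing section. Values of TRaWT are reads normalised over the 8 TRaWT libraries together. They are given for animals 1, 2, 3 and 4 in that order or as mean ± SD with n = 4. Values of TRaGS, given as means, are reads normalised over all 16 libraries together. Differences are Treg minus CD4 on a log2(reads + 1) scale with their standard error.

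Treg differed from CD4 in 578 of 10725 tested genes, 5.39% of them, at an adjusted p of 0.05 or less in limma with the animal as a block. Of these, 293 genes (2.73% of those tested) were higher in Treg and 285 (2.66%) were lower. The median difference over all tested genes was 0.06. The fold was at least 2 in 326 of the called genes (3.04% of those tested), and in 448 called genes the 4 Treg libraries did not overlap the 4 CD4 libraries, against 1092 genes (10.2%) without overlap among all tested. In 547 of the called genes all 4 animals moved in 1 direction. edgeR on the same reads called 558 genes, 552 of which limma called too. The count was 382 without the block, 314 with no filter on low genes, 351 with the TRaGS libraries in the fit, 349 without animal 1 and 352 without animal 4. Without animal 1 there were 177 higher and 172 lower genes, and without animal 4 there were 159 higher ones. limma estimated infinite prior degrees of freedom here, so every gene's variance was the value of the trend at its level, and the standard errors and p-values do not measure a single gene's own spread between animals. The split of the calls depended on how the 2 subsets were put on 1 scale. Of the calls, 50.7% were higher in Treg with the normalisation used here, 61.7% with upper-quartile factors and 79.5% with the separately normalised tables as deposited, in which the median of all genes was shifted by 0.215.

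**Figure D1:**
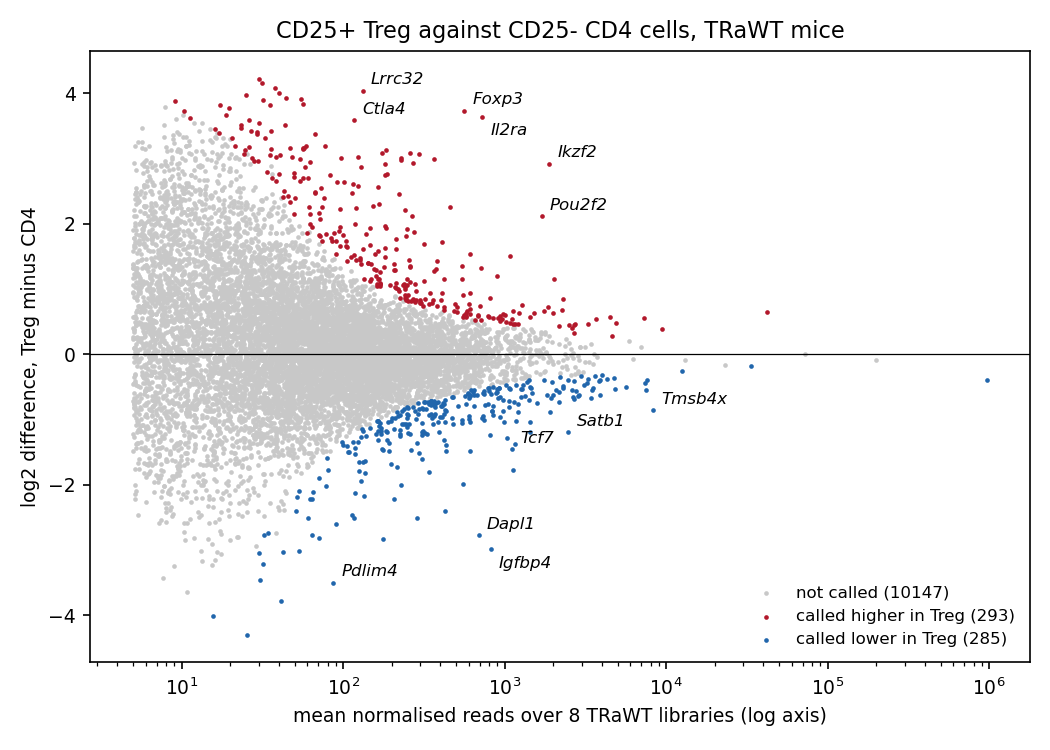
Each point is 1 of the 10725 tested genes, with its mean normalised reads over the 8 TRaWT libraries on a log axis and its log2 difference between Treg and CD4 on the other. Red points were called higher in Treg (293 genes), blue points lower (285 genes), and grey points were not called; Foxp3, Il2ra and Ikzf2 lie far above the other genes of their level, Igfbp4 and Dapl1 far below.

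The 4 genes that define the labelled cell types were all higher in Treg. Il2ra (ENSMUSG00000026770, chromosome 2, 11642807 to 11693193 on GRCm38) encodes the chain used for the sort, so its difference checks the gate and is no finding. It had 120.2, 75.4, 101 and 137 reads in CD4 and 1366, 1276, 1510.2 and 1199 in Treg. Foxp3 (ENSMUSG00000039521, chromosome X, 7573644 to 7595245), the lineage factor, was not used in the sort. It had 118, 47.7, 52.1 and 118 reads in CD4 and 958, 1088, 1064 and 1045 in Treg, which is 3.74 ± 0.25 on the log2 scale (limma adjusted p = 4.29e-48). Every Treg library was far above every CD4 library, and CD4 animals 1 and 4 held more Foxp3 than animals 2 and 3. Ikzf2, which encodes the zinc finger protein Helios, had 419, 468, 425 and 442 reads in CD4 and 3934, 3082, 3183 and 3189.5 in Treg, a difference of 2.92 ± 0.14 (limma adjusted p = 3.77e-93). The 4 CD4 libraries were nearly equal, and in Treg animal 1 stood above the other 3. Ctla4 had 16.1, 12.1, 24.9 and 15.1 reads in CD4 and 236, 152, 297 and 181 in Treg, with no overlap and a difference of 3.59 ± 0.54. Cd4 itself, also a marker of the sort, was lower in Treg at 657 ± 17.3 reads against 942 ± 69.5 (-0.52 ± 0.16, limma adjusted p = 0.032), a call lost in 10 of 20 alternative settings.

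The CD25- fraction was not free of these transcripts. Foxp3 in CD4 stood at 12.4, 4.38, 4.89 and 11.3% of the Treg level of the same animal, and the ratio of the means was 8.09% for Foxp3, 8.1% for Il2ra, 7.86% for Ctla4 and 13.1% for Ikzf2. Over the 22 called members of the list of Treg core genes the median ratio was 13.1% and the range 5.09% to 38.2%. The lowest was that of 5.09% for Plagl1, a zinc finger transcription factor, and the highest that of 38.2% for Il2rb. In bulk RNA, fewer cells with a transcript and less of it per cell cannot be told apart.

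**Figure D2:**
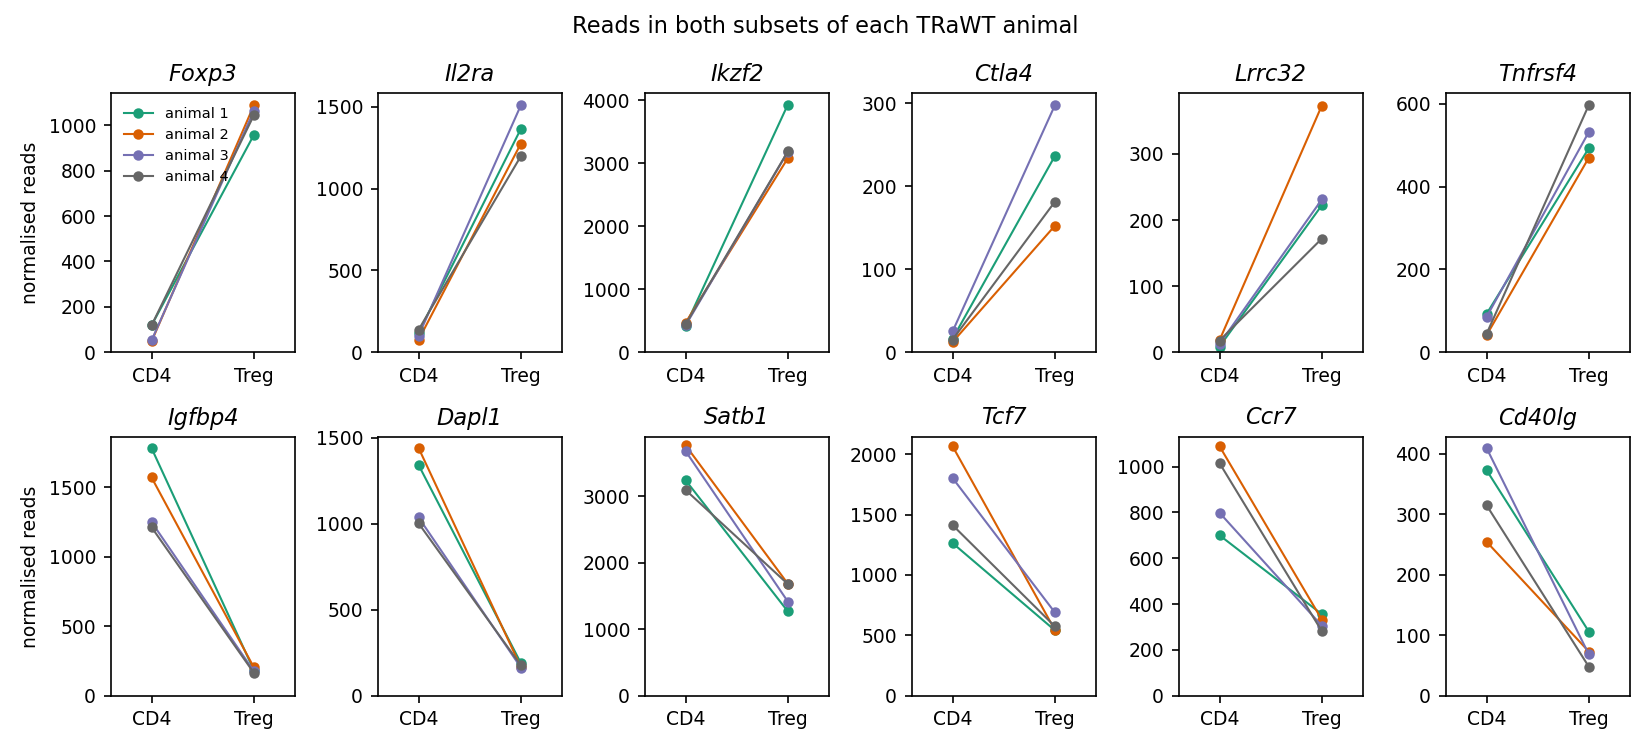
Normalised reads (linear axes from 0) of 12 genes in the CD4 and Treg libraries of the 4 TRaWT animals, with 1 line per animal. In the upper row every line rises from CD4 to Treg, and in the lower row every line falls; Treg libraries of Igfbp4 lie between 164 and 203 reads.

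Of the 27 Treg core genes, all tested, 22 were called higher in Treg and 0 lower, with a median difference of 2.92 against 0.06 over all tested genes. Beside those above, the receptors for TNF-type ligands were in this group. Tnfrsf4, which encodes OX40, had 92.3, 40.7, 84.9 and 43.95 reads in CD4 and 493, 469.7, 532 and 597 in Treg (3.07 ± 0.31, limma adjusted p = 9.44e-21). Tnfrsf9, which encodes the costimulatory receptor 4-1BB, rose from 41.8 ± 24.8 to 325 ± 36.6 reads. Tnfrsf18, which encodes GITR, had 277, 39.9, 202 and 181 reads in CD4 and 519, 473, 445 and 411 in Treg, and CD4 animal 2 was far below the other CD4 libraries. Nrp1, a semaphorin coreceptor typical of thymus-derived Treg, had 129, 268, 162 and 102 reads in CD4 and 810.0, 782, 782 and 625 in Treg. Ikzf4, which encodes Eos and is a relative of Ikzf2, had 154, 60.7, 69.1 and 59.02 in CD4 and 661, 616, 767 and 512 in Treg. Cd83 had 7.62, 5.20, 5.66 and 7.53 reads in CD4 and 130.3, 83.8, 102 and 109 in Treg, so its libraries were far apart in every animal. The 5 members not called were Itgae (1.66), Entpd1 (1.94), Gpr34 (1.32), Cd38 (-0.86) and Gpm6b (-1.42).

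Among genes for suppressor molecules, 6 of 19 tested were called higher and 0 lower, with a median of 1.82. The enzyme of the adenosine pathway Nt5e, which encodes CD73, had 35.5, 6.93, 123 and 31.4 reads in CD4 and 179, 243, 165 and 204 in Treg (2.58 ± 0.46, limma adjusted p = 2.91e-06), and CD4 animal 3 lay nearest to the Treg values. Entpd1, which encodes CD39 and works a step earlier, was at 16.8 ± 17.6 and 55.1 ± 26.2 reads and did not pass the test (limma adjusted p = 0.174). Lrrc32 encodes GARP, the surface anchor of latent TGF-beta, and had 8.46, 18.2, 12.5 and 17.6 reads in CD4 and 222, 373, 231 and 172 in Treg (4.04 ± 0.55, limma adjusted p = 4.1e-11). Itgb8, the integrin chain that releases TGF-beta from that latent form, had 29.6, 6.07, 7.93 and 13.8 reads in CD4 and 81.7, 82.04, 95.4 and 80.2 in Treg. Both were thus without overlap, while Tgfb1, the ligand, was at 149.9 ± 16.1 in CD4 and 228 ± 81.4 in Treg and was not called. Penk, which encodes an enkephalin precursor, ranged from 40.6 to 200 reads in Treg and from 4.23 to 22.6 in CD4. The gene for the cytokine Il10 was low, at 0, 0, 0 and 1.26 reads in CD4 and from 2.70 to 26.9 in Treg, and was not called (limma adjusted p = 0.0651). Tigit, Lag3, Havcr2, Gzmb, Areg, Il12a and Il1rn fell under the minimum level and were not tested.

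Receptor genes of the same pathway were among those lower in Treg. Over the TGF-beta and Smad list, 4 of 17 tested genes were called higher and 3 lower, with a median of 0.48. The called higher genes were Lrrc32, Itgb8, Nrp1 and the feedback inhibitor Pmepa1 (1.16). The called lower genes were the receptor chain Tgfbr2, with 363, 168, 208 and 211 reads in CD4 and 83.2, 93.8, 104 and 86.5 in Treg (-1.31 ± 0.34), the coreceptor Tgfbr3, with 64.3, 112, 52.1 and 156 and 14.7, 4.51, 10.4 and 13.5 (-3.02 ± 0.76), and the shared signal transducer Smad4, with 485, 541, 180.1 and 208 and 108, 217, 116 and 182 (-1.07 ± 0.28). The subsets did not overlap for either receptor, and for Smad4 the highest Treg library passed the lowest 2 CD4 libraries. Tgfbr1 (0.38), Smad2 (0.59) and Smad3 (-0.27) were not called.

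Of the cytokine receptors that share the common gamma chain and of their Stat5 pathway, 5 of 21 genes were called higher and 3 lower, with a median of 0.11. Il2ra is the chain of the sort. Il2rb, the signalling chain shared by the receptors for Il2 and Il15, had 194, 138, 194 and 311 reads in CD4 and 498, 644, 578 and 468 in Treg (1.43 ± 0.23, limma adjusted p = 8.82e-08). The lower genes were the gamma chain Il2rg (-0.53), the kinase Jak1 (-0.37) and Il7r, the receptor chain for the survival factor Il7, with 1932, 2092, 2748 and 2691 reads in CD4 and 1659.7, 1194, 1271 and 1833 in Treg (-0.67 ± 0.12). Targets of Stat5 were among the called higher genes. Cish, a feedback inhibitor that Stat5 induces, had 38.9, 25.1, 92.9 and 62.8 reads in CD4 and 305, 379, 532 and 397 in Treg (2.99 ± 0.35, limma adjusted p = 2.4e-15). Socs2, of the same inhibitor family, went from 30.9 ± 19.3 to 171 ± 15.2 reads and the kinase Pim1 from 568 ± 139 to 1593 ± 261. Stat5a (0.16), Stat5b (0.11), Socs1 (0.00), Socs3 (0.10) and Bcl2 (0.39) were not called. Bcl2 was higher in Treg in all 4 animals, at a limma adjusted p of 0.0511. Some alternatives called it, such as quantile normalisation (limma adjusted p = 0.00684), and others did not, such as edgeR (edgeR adjusted p = 0.0785).

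Over the TNF superfamily, 7 of 23 tested genes were called higher and 1 lower, with a median of 0.56. Tnfrsf1b, which encodes the TNF receptor found on highly suppressive Treg, had 193, 71.1, 66.8 and 55.3 reads in CD4 and 248, 311, 288 and 219.8 in Treg (1.64 ± 0.33). CD4 animal 1 was highest of its group and still below every Treg library. The ligand gene Lta had 35.5, 9.53, 24.9 and 36.4 in CD4 and 112, 188, 157 and 169.8 in Treg. The 1 lower gene was Cd40lg, the helper ligand of activated conventional T cells, with 373, 255, 409.9 and 315 reads in CD4 and 106, 73.03, 68.4 and 47.9 in Treg (-2.21 ± 0.33, limma adjusted p = 3.58e-09). In the CD28 family and other inhibitory receptors 4 of 21 tested genes were called higher and 1 lower, with a median of 0.50. Icos, a costimulatory receptor of effector cells, had 451, 185, 478 and 455 reads in CD4 and 717, 651, 953 and 511 in Treg (0.91 ± 0.19), and animal 2 was lowest in CD4 by a wide margin. Pdcd1, which encodes PD-1, was at 4.41 ± 5.60 in CD4 and 42.04 ± 18.1 in Treg, a call lost in 5 of 20 alternatives. Slamf1, a homophilic adhesion and signalling receptor, went from 121 ± 81.5 to 408 ± 67.1 reads. Cd28 (-0.11) and Btla (-0.12) were not called. Lair1, an inhibitory receptor for collagen, was the lower gene at 52.7 ± 22.5 in CD4 and 7.96 ± 9.00 in Treg, with the call lost in 7 of 20 alternatives.

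Among transcription factors and chromatin regulators that act with Foxp3 or in its network, 9 of 44 genes were called higher and 8 lower. Their median was 0.15 and changed sign over the alternatives (-0.04 to 0.37). Some factors of the NF-kappa-B family were higher. Rel, which is needed for Foxp3 to be switched on in the thymus, had 161, 244, 263 and 192 reads in CD4 and 546, 356, 698 and 554 in Treg (1.31 ± 0.23, limma adjusted p = 1.75e-06), and Nfkb1 (0.83) and Nfkb2 (2.07) were higher too. Rela (-0.10) and Relb (1.12) were not called. Gata3, which Treg use besides its role in Th2 cells, had 433, 310.2, 531 and 394 in CD4 and 848, 603, 864 and 861 in Treg. Ikaros family genes were split, with Ikzf2, Ikzf3 (1.12) and Ikzf4 higher and Ikzf1 (-1.29) lower. The other lower factors were Tcf7, Lef1, Satb1, Foxo1 (-0.46), Runx3 (-0.73), Bcl11b (-0.40) and Smad4. Satb1, a chromatin organiser whose repression in Treg is well known, had 3238, 3763, 3676 and 3092 reads in CD4 and 1266, 1681, 1414 and 1677 in Treg (-1.19 ± 0.11, limma adjusted p = 5.05e-23). Pou2f2, an octamer-binding factor outside these lists, was among the genes with the smallest p, with 978, 615, 461 and 521 reads in CD4 and 3589, 2829, 2446 and 2080.2 in Treg (2.12 ± 0.14, limma adjusted p = 1.05e-50). Its values varied widely within each subset, with animal 1 highest in both, and did not overlap.

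Naive and quiescence genes were lower in Treg wherever they were called. Of 27, all tested, 15 were called lower in Treg and 0 higher, with a median of -0.67. Igfbp4, a binding protein for insulin-like growth factors and a mark of naive CD4 T cells, had 1781, 1570.2, 1249 and 1212 reads in CD4 and 183, 203, 175 and 164 in Treg (-2.98 ± 0.19, limma adjusted p = 2.07e-50). Dapl1 had 1342, 1440.2, 1036 and 1002 reads in CD4 and 189, 167, 164 and 176 in Treg (-2.77 ± 0.20, limma adjusted p = 1.77e-39). In both genes CD4 animals 1 and 2 were above animals 3 and 4, while the 4 Treg libraries were alike. Tcf7 and Lef1, partner factors of the Wnt pathway that keep naive T cells, had 1264, 2066, 1803 and 1413 and 1917, 1931, 1986 and 2159.9 reads in CD4. In Treg they had 541, 545, 689 and 574 and 829, 972, 822 and 884. Actn1, an actin crosslinker, went from 1753 ± 248 to 509 ± 63.5 reads (-1.78 ± 0.15). Genes of recirculation were among the lower ones. Ccr7, the receptor that leads T cells into lymph nodes, had 700.0, 1088, 798 and 1015 reads in CD4 and 356, 332, 305 and 281 in Treg (-1.48 ± 0.19, limma adjusted p = 2.23e-12). S1pr1, the receptor for exit from them, went from 949 ± 88.7 to 563 ± 119, and Klf2, the factor that switches S1pr1 on, from 1524 ± 281 to 895 ± 118.

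Genes known to be repressed by Foxp3 were called lower in 10 of 24 tested cases and higher in 1, with a median of -0.53. This list shares Tcf7, Satb1, Themis, Igfbp4 and Il7r with the naive list. Pde3b, a phosphodiesterase and a direct target of Foxp3, had 422, 514, 419 and 574 reads in CD4 and 75.8, 73.9, 57.01 and 150 in Treg (-2.51 ± 0.29, limma adjusted p = 2.5e-15). Arl4c went from 1683 ± 326 to 641 ± 79.7 reads. The higher gene was Dusp4, a phosphatase of MAP kinases, at 3.49 ± 1.98 reads in CD4 and 55.2 ± 37.7 in Treg, a call lost in 5 of 20 alternatives. The cytokine genes Il2, Il4 and Il17a were under the minimum level, and Ifng was at 10.2 ± 15.98 in CD4 and 3.35 ± 6.11 in Treg, not called.

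Against 5.39% of all tested genes, 81.5% of Treg core and 55.6% of naive genes were called in either direction. The share was 45.8% for Foxp3-repressed genes, 42.9% for effector Treg, 41.2% for TGF-beta and Smad and 38.6% for Foxp3 network factors. It was 38.1% for gamma chain, 34.8% for TNF, 34.7% for ribosomal, 31.6% for suppressor and 27.8% for helper genes. Memory had 25.9%, trafficking 25%, the CD28 family 23.8%, receptor signalling 14.7% and receptor response 11.5%. Where a direction had 0 calls in limma, edgeR also made 0. At an unadjusted limma p under 0.05, genes in that direction were 0 lower for the Treg core and suppressor lists, 1 higher for the naive list, 1 higher for receptor signalling, 2 lower for receptor response, 2 lower for helper lineages and 2 higher for ribosomal proteins.

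**Figure D3:**
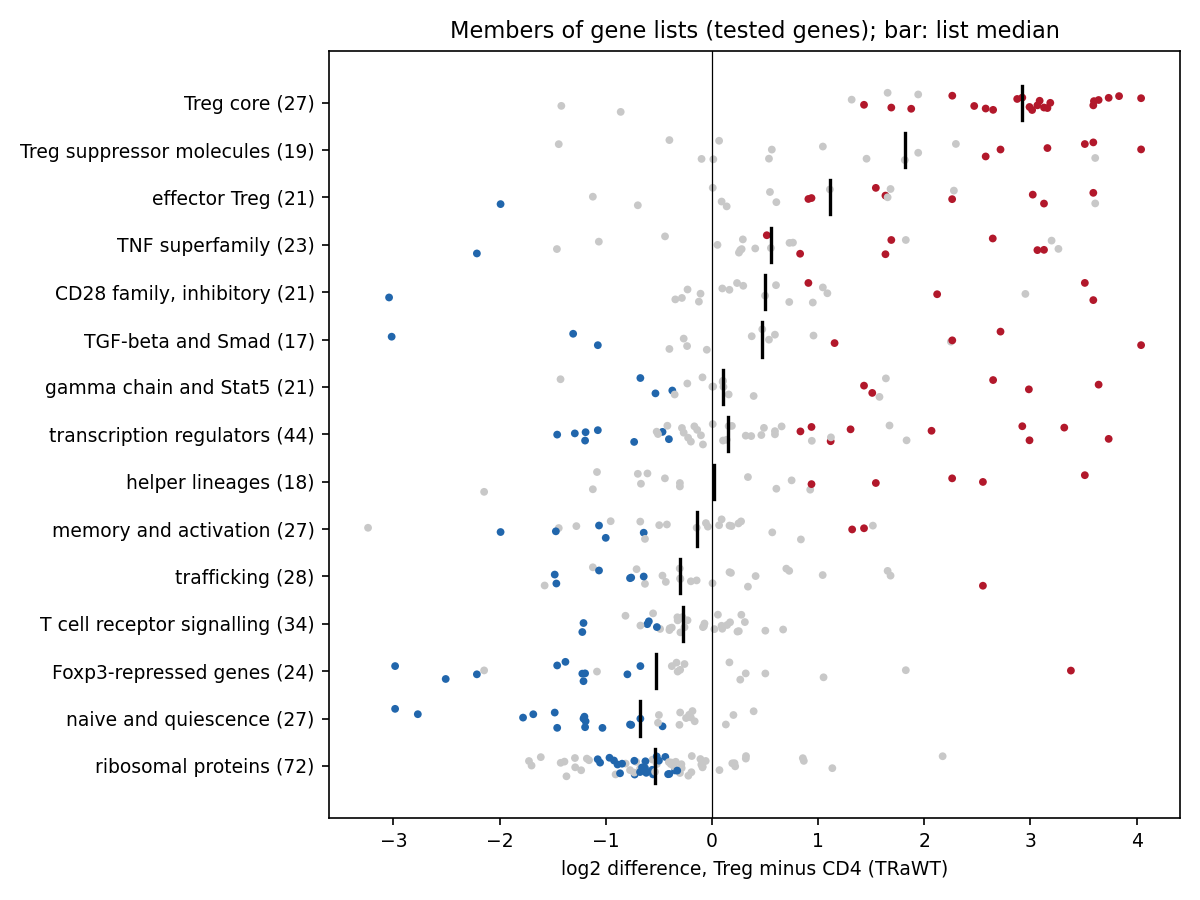
Each point is a tested member of a gene list at its log2 difference between Treg and CD4 in TRaWT animals, with the number of tested members beside each list name and a black bar at the list median. Red and blue points were called higher and lower; the Treg core (22 of 27 higher) and the naive list (15 of 27 lower) lie on opposite sides of 0, and 25 of 72 ribosomal protein genes were lower.

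Proximal signalling of the T cell receptor was called lower in 5 of 34 genes and higher in 0, with a median of -0.27. Among the 5 were Cd4, the adaptor Lat (-0.59), the receptor chain Cd247 (-0.61) and Themis (-1.21), a signalling protein of thymic selection. The call of Lat was lost in 6 of 20 alternatives. Cd3e (-0.32), Lck (0.10) and Zap70 (-0.38) were not called. Of the genes that answer receptor stimulation, 3 of 26 tested were called higher and 0 lower, with a median of 0.25. They were Rel, the phosphatase Dusp5 (1.45 ± 0.28) and Jund (0.48 ± 0.15), the last with its call lost in 7 of 20 alternatives. Nr4a1 was at 60.3 ± 28.5 reads in CD4 and 74.4 ± 32.98 in Treg, and Egr1 at 304 ± 126 and 301 ± 39.4. Neither was called. In the list of heat shock and early genes that cell isolation can induce, 1 of 17 was called, Hsp90ab1 (0.39 ± 0.08), a share of 5.88% against 5.39% over all tested genes.

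Effector Treg genes were called higher in 8 of 21 tested cases and lower in 1, with a median of 1.11. Klrg1, a receptor of terminally differentiated Treg, had 15.2, 33.8, 29.4 and 27.6 reads in CD4 and 310, 205, 212 and 156 in Treg (3.02 ± 0.48, limma adjusted p = 4.91e-08). Maf went from 320.2 ± 118 to 903 ± 196 reads and Il1rl1, the receptor for the alarmin Il33, from 19.3 ± 6.59 to 103 ± 46.4. The lower gene was Id2, an inhibitor of E proteins, with 890.4, 870.0, 987 and 751 reads in CD4 and 181, 204, 294 and 209 in Treg (-1.99 ± 0.21, limma adjusted p = 2.27e-19). Prdm1 (0.55), Batf (0.14) and Irf4 (0.01) were not called. Of the genes of helper lineages 5 of 18 tested were called higher and 0 lower, all of them named here, namely Gata3, Il1rl1, Maf, Pdcd1 and Ccr6. The median of that list was 0.02 and changed sign over the alternatives (-0.12 to 0.56).

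In the trafficking list 1 of 28 tested genes was called higher and 6 lower, with a median of -0.30. The higher gene was Ccr6, the receptor for Ccl20, with 34.7, 12.1, 27.2 and 10.05 reads in CD4 and 127, 200.2, 57.01 and 115 in Treg (2.55 ± 0.62). Lower with Ccr7, S1pr1 and Klf2 were the integrin genes Itgb2 (-1.06 ± 0.23), its partner Itgal (-0.64) and Itgb3, which had 323, 336, 482 and 411 reads in CD4 and 105, 148, 138 and 169.8 in Treg (-1.46 ± 0.27). Among genes of memory and activation 2 of 27 were called higher and 5 lower. The median was -0.14 and changed sign over the alternatives (-0.41 to 0.08). Ahnak, a large scaffold protein, went from 408 ± 73.2 to 1018 ± 163 reads. The chemokine gene Ccl5 had 114, 312, 370.3 and 254 reads in CD4 and 90.6, 113, 64.3 and 84.4 in Treg, and the highest Treg library fell just short of the lowest CD4 library.

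Ribosomal protein genes were called lower in 25 of 72 tested cases and higher in 0, with a median of -0.54 that stayed between -0.56 and -0.32 over the alternatives. Rpl4 had 10418, 10100, 8255 and 7256 reads in CD4 and 6156, 5549, 6897 and 5745 in Treg (-0.55 ± 0.08, limma adjusted p = 1.91e-09). Rps24 had 3959.5, 4664, 4295 and 3860.1 and 2853, 2712, 2635 and 2301 (-0.68 ± 0.10), and Rps19 2508, 3211, 2689 and 2419.8 and 1504, 1643, 1832 and 1529 (-0.73 ± 0.12). The subsets did not overlap in any of these. Ribosomal protein genes have many near-identical pseudogenes, and no label states how reads shared with them were counted. Of the mitochondrially encoded genes, 2 of 8 tested (25%) were called lower and 0 higher, mt-Nd1 (-0.39 ± 0.08) and mt-Cytb (-0.45 ± 0.08). The subsets overlapped in both, and the calls were lost in 4 and 3 of 20 alternatives. Of nuclear genes of oxidative phosphorylation 3 of 37 were called lower and 0 higher, Atp5a1 (-0.59), Atp5b (-0.74) and Ndufa6 (-0.81). The last share was 8.11%, near the 5.39% over all tested genes, and the calls were lost in 3, 5 and 11 of 20 alternatives for Atp5a1, Atp5b and Ndufa6. In glycolysis 1 of 19 tested genes was called in each direction, 10.5% in all against 5.39% of all tested genes. They were Hif1a (0.84 ± 0.25), the oxygen-sensitive factor, and Pdk1 (-1.52 ± 0.27), which holds pyruvate back from the mitochondria. Pdk1 had 725, 612, 198 and 272 reads in CD4 and 141, 133, 128 and 146 in Treg, with the CD4 animals in a high and a low pair. In the lipid and sterol list 0 of 24 genes were called by limma or by edgeR and 0 had an unadjusted p under 0.05.

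Genes of the cell cycle were called higher in 2 of 30 tested cases, Smc4 (0.56 ± 0.08) and E2f2 (1.31 ± 0.35), and lower in 1, Tubb5 (-0.47 ± 0.14). In all, 10% of the tested members were called, against 5.39% of all tested genes. The call of Tubb5 was lost in 11 of 20 alternatives and that of E2f2 in 3. E2f2 was higher in Treg in 3 of 4 animals, and its subsets overlapped. Its limma adjusted p was 0.227 without animal 1 and 0.2105 without animal 4. Mki67, the marker of cycling cells, was at 47.2 ± 29.4 reads in CD4 and 90.6 ± 58.8 in Treg and not called. Among genes of cell death 1 of 19 was called (5.26%, against 5.39% of all tested genes), the inhibitor Birc3 (1.15 ± 0.34). Its subsets overlapped and its call was lost in 6 of 20 alternatives, with 0.89 and a limma adjusted p of 0.333 without animal 4, 1.13 and 0.127 without animal 1, and 1.07 and 0.0676 without animal 3. Of the interferon-induced genes 3 of 41 were called higher and 1 lower, 9.76% in all, and edgeR called 2 higher and 1 lower, with a median of -0.04 that changed sign over the alternatives (-0.07 to 0.18). The calls of Ifi27l2a (0.53 ± 0.18, limma adjusted p = 0.0493) and of the lower gene Slfn1 (-0.50 ± 0.16, limma adjusted p = 0.0361) were lost in 10 and 11 of 20 alternatives. Those of the other 2 were lost in 0. They were Ly6e, with 1316, 1152, 1908 and 2387 reads in CD4 and 2724, 3189.7, 3003 and 2805 in Treg (0.85 ± 0.11), and Gbp7, with 1045, 816, 918 and 956 and 2306, 1229.7, 1489.5 and 1419 (0.75 ± 0.14). Isg15 (-0.63) was not called.

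The receptor altered in the TRaGS mice was read in both wild-type subsets. Thra had 91.4, 80.6, 197 and 138 reads in CD4 and 122, 137, 106 and 109 in Treg, the ranges overlapped and the difference was -0.01 ± 0.38 (limma adjusted p = 0.993). Thrb, the other thyroid hormone receptor gene, was at 0, 121, 11.3 and 13.8 reads in CD4 and 6.63, 6.31, 1.04 and 3.12 in Treg, so a single CD4 library held most of its reads. Of 18 tested genes of the receptor pathway, 2 were called higher, among them the coactivator Ncoa3 (0.80 ± 0.25, a call lost in 6 of 20 alternatives), and 1 lower, Gpd2 (-1.44 ± 0.34), a mitochondrial enzyme that thyroid hormone induces in liver. The called share of the tested members was 16.7%, against 5.39% of all tested genes. The median of the list was 0.01 and changed sign over the alternatives (-0.22 to 0.22).

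The genes with the largest differences were mostly low in 1 subset. Among called genes without overlap that reached 50 reads in the higher subset, the steepest rises were those of Gsta4 (4.23), Map6 (4.09), Lrrc32 (4.04), Arhgap20 (3.93) and Bicd1 (3.90). Gsta4, a glutathione transferase, had 1.69, 2.60, 5.66 and 0 reads in CD4 and 33.9, 46.9, 106 and 43.7 in Treg. Map6, a protein that stabilises microtubules, had 4.23, 1.73, 2.26 and 5.02 and 109, 69.4, 44.6 and 65.6. Spock2, a matrix proteoglycan, had 1.69, 4.33, 6.79 and 2.51 and 46.4, 97.4, 82.9 and 39.6. The steepest falls were those of Ggt5 (-3.79), Pdlim4 (-3.50), Lypd6b (-3.22), Lair1 (-3.04) and Nacc2 (-3.04). The calls of Ggt5, Lypd6b, Lair1 and Nacc2 were lost in 3, 4, 7 and 4 of 20 alternatives and that of Pdlim4 in 0. Ggt5 lost its call without animal 3 or animal 4 (limma adjusted p = 0.0785 and 0.115). Of the 5 steepest rises, only Gsta4 lost its call, in 1 of 20. Pdlim4, an adaptor of the actin skeleton, had 97.3, 189, 132 and 219.8 reads in CD4 and 11.8, 11.7, 15.5 and 11.5 in Treg. Sgk1, a kinase downstream of growth factor signals, had 251, 167, 202 and 168 reads in CD4 and 47.9, 33.4, 19.7 and 38.5 in Treg (-2.51 ± 0.46, limma adjusted p = 4.81e-06). The log2(reads + 1) scale understates the change of such low genes.

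Markers of other cells took a small share of both subsets. The sum was taken over 92 marker genes of B cells, plasma cells, NK cells, myeloid cells, neutrophils, red cells and platelets and stromal cells. Markers of CD8 T cells were not part of it. The summed share was 0.0988% to 0.141% of reads in CD4 and 0.0881% to 0.111% in Treg. It was lower in Treg in every animal, with a mean difference of -0.0178 percentage points and an exact sign-flip permutation p of 0.13, two-sided, the smallest that 4 pairs allow. Without animal 3 the mean difference was -0.00877. In both subsets 26 of the 92 genes were at 0 in all 4 libraries. Of the 92 genes, 37 reached the level for testing. The called members were 4 genes of antigen presentation on MHC class II, all in the B cell list and all lower in Treg. In that list 15 of 19 genes were tested and 26.7% of these were called, against 5.39% of all tested genes. H2-Ab1 had 183, 295, 536 and 237 reads in CD4 and 34.6, 51.4, 38.4 and 35.4 in Treg (-2.84 ± 0.40, limma adjusted p = 1.74e-10). Cd74, the chaperone of these molecules, had 328, 401, 621 and 311 and 127, 176, 173 and 152 (-1.35 ± 0.26), and H2-Aa and H2-Eb1 differed by -2.13 and -2.60. The whole B cell list of 19 genes took 0.0412% to 0.0782% of reads in CD4 and 0.0374% to 0.0572% in Treg. Of its other genes, Ighm (0.32), Ms4a1 (0.58) and Cd79b (0.59) were not called, and Cd79a was under the minimum level. Of the dendritic cell marker Itgax there were 36.4, 52.9, 35.1 and 1.26 reads in CD4 and 2.21, 8.11, 0 and 2.08 in Treg, not called (limma adjusted p = 0.178). The part of such cells in the MHC class II difference was not tested. Among sex-linked genes Xist was higher in Treg (0.66 ± 0.12), with all 4 animals in the same direction, and the 5 others were not tested because of their low level.

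The same contrast in the 4 TRaGS animals used 8 other libraries, processed alike. Of the 578 genes called in TRaWT, 556 (96.2%) had the same sign in TRaGS, against 63.5% of the genes not called. Of the fewer calls without animal 1 or animal 4, 339 and 341 had the same sign. In TRaGS 531 genes were called, 4.95% of those tested, and 246 genes were called in both genotypes, all with the same sign, which is 42.6% of the TRaWT calls and 46.3% of the TRaGS calls. Foxp3 differed by 3.74 in TRaWT and 3.27 in TRaGS, Ikzf2 by 2.92 and 2.87, Igfbp4 by -2.98 and -3.37, and Dapl1 by -2.77 and -3.02. Of the MHC class II genes, Cd74 differed by -1.35 in TRaWT and -0.03 in TRaGS, a difference between genotypes that did not pass (limma adjusted p = 0.367). For Id2 the values were -1.99 and -0.60 (limma adjusted p of the difference = 0.0753).

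A direct test of the difference between genotypes over all 16 libraries called 14 of 10838 genes, 0.129%, and 713 genes had an unadjusted p under 0.05. The count was 9 without TRaWT animal 1 and 29 without TRaGS animal 4. The TRaWT reads below were normalised over 8 libraries and the TRaGS reads over 16, so they are not on exactly 1 scale. In Bcl2, the survival factor, Treg had 1639 reads against 1260.1 in CD4 in TRaWT, but 966 against 2608 in TRaGS. The difference between genotypes was -1.87 (limma adjusted p = 1.51e-09). Klf3, a repressor of the Klf family, was at 2262 ± 230.2 in CD4 and 2482 ± 282 in Treg of TRaWT, and at 4202 and 2324 in TRaGS. Gpr83, an orphan receptor gene of the Treg core, differed by 3.02 in TRaWT and by 0.67 in TRaGS. Smc4, a condensin subunit, differed by 0.56 and by -0.27. For Myo6, an unconventional myosin, the TRaWT means were 128 and 80.7 reads and the TRaGS means 1178 and 126, so that the high group was TRaGS CD4. Of these 14 genes, Gpr83, Smc4, Resf1, Ms4a4b and Rps14 were also called in the contrast of TRaWT subsets.

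**Figure D4:**
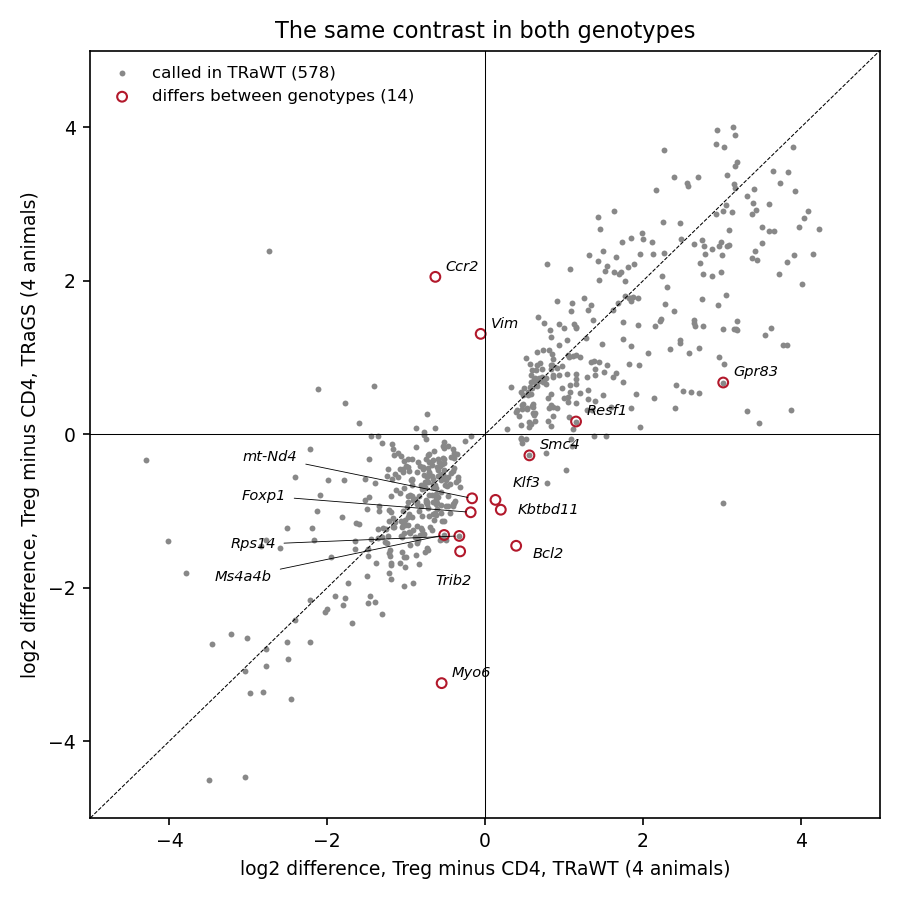
The log2 difference between Treg and CD4 in TRaWT animals against that in TRaGS animals, for the 578 genes called in TRaWT (grey) and the 14 genes whose difference differed between genotypes (red circles, named). The dashed line marks equal differences; 556 of the 578 grey points lie in the quadrants of equal sign, and Bcl2, Klf3, Vim and Ccr2 lie away from the line.

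Genes called higher in Treg had longer transcripts at the median, a description with no test. Their longest annotated transcript had a median of 4412 bases, against 3183 for genes called lower and 3283 for all tested genes, and the median gene span was 32957, 23025 and 21170 bases. GC content was alike, with medians of 48.8%, 48.6% and 48.8%. Sequences around transcription starts, 250 bases before to 50 after, came from RefSeq on GRCm38.p6 and were found for 203 of the 293 genes called higher (272 windows, since a gene can have several starts) and 217 of the 285 called lower (301 windows). 7 motifs were searched on both strands. The STAT site TTCNNNGAA was in 12.1% of the windows of genes called higher, 5.98% of those called lower, 6.97% of the windows of tested genes and 8.30% of all windows. The NF-kappa-B site was in 1.84%, 0.332%, 0.435% and 0.411% in the same order, which is 5 windows of genes called higher. The forkhead site TGTTTAC was in 4.41%, 2.33%, 2.63% and 3.65%, and the Ets site CCGGAAGT in 4.78%, 3.32%, 9.20% and 3.89%. The shares for Runx (TGTGGTT) were 1.84%, 4.32%, 3.83% and 5.27%, for AP-1 (TGANTCA) 5.51%, 5.65%, 4.72% and 7.81%, and for TCF/LEF (CTTTGAT) 2.21%, 1.99%, 2.50% and 3.73%. A match is a run of letters and not a bound site. A window each is printed for the lineage gene of Treg and for a leading gene of the CD4 side, because both hold a match, given in capitals. The windows of Il2ra and Igfbp4, searched in the same way, held no match and are not printed. The Foxp3 window at chrX:7580233-7580532 (plus strand, 1 of 2 for this gene, the other with no match) holds a STAT match. The Dapl1 window at chr2:59484403-59484702 (plus strand) holds a forkhead match that reads TGTTTAC on the opposite strand.
Foxp3: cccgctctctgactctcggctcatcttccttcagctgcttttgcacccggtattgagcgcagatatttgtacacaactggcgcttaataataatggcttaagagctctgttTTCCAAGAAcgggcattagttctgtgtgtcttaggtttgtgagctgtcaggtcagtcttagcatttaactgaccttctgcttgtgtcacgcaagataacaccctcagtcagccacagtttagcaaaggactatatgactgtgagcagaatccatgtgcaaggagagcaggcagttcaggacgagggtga
Dapl1: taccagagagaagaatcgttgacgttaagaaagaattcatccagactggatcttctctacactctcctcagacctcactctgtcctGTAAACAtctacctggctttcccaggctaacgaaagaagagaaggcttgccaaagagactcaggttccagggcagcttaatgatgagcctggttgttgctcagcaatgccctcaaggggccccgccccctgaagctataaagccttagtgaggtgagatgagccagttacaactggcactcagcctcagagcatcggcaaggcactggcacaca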

How the data were processed

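The authors deposited 1 table per subset in a signal unit, in which each library's counts are scaled by a single factor, with 47643 Ensembl identifiers. Each table was normalised by itself, and the submitters' processing notes name the build GRCm38. Aligner and counting program: not given in the sources used here. Dividing each column by its smallest non-zero value gave whole reads within a tolerance of 0.001. The tables were joined on the identifier, and the 8 TRaWT libraries were normalised together by median-of-ratios factors. Symbols (47224 identifiers matched) and coordinates came from GENCODE mouse release 21. Genes whose mean reached 5 normalised reads were tested as log2(reads + 1) with limma 3.58.1 (R 4.3.3), a variance trend, the animal as a block and Benjamini-Hochberg adjustment at 0.05. TRaGS was fitted alike after all 16 libraries were normalised together (prior degrees of freedom 27.3). The genotype difference was fitted on within-animal differences from the same normalisation (prior degrees of freedom 83.0). Each animal number gave 1 library of each subset, so the numbers pair the libraries by animal, although same-animal deviations correlated by only 0.03, 0.03, -0.01 and 0.02. Nothing else in the labels says how far the animals were kept or processed apart.

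Alternatives were pseudocounts of 0.5 and 5, no filter, a mean of at least 20, TMM and upper-quartile factors, total reads without Gm42418, the deposited values, quantile normalisation, edgeR 4.0.16 and DESeq2 1.42.0, array weights, no block, leaving out each animal, all 16 libraries in 1 fit, thinning to 1690564 reads, and dropping the marker genes of other cells and of sex. On simulated counts with 200 changed genes (10697 to 10726 tested), limma recovered 51.6% of 4-fold and 14.7% of 2-fold changes, with 1.94% of its calls false. The changed genes were drawn from those with a mean of at least 20 normalised reads. All animals were simulated with the same expected level of a gene in a subset, apart from library size. The members, the 34 gene lists and the tests were chosen with earlier results of these data known. The rule named 7 fixed genes, the 15 largest changes and 5 smallest p per direction, up to 6 called members per list (2 where none was called) and the 5 smallest p for the genotype difference. Other genes in the text were chosen after their values were seen, and some genes that the rule names are left out of this account. Figures were drawn with matplotlib 3.10.9.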

Additional observations from a re-analysis of the deposited data

Results flagged for a closer look

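In 13 of the 256 groups of 4 libraries examined (128 named genes in 2 subsets), 1 library stood apart from the other 3 by Dixon's criterion at 95%. Chance alone meets it in about 1 of 20 groups, here 12.8, so the count is about what chance gives and the values are a description. In Treg, animal 1 was high for Ikzf2 (3930 normalised reads, the others 3080 to 3190) and Ahnak (1260, the others 925 to 955). Animal 2 was low for Gata3 (603, the others 848 to 864), animal 3 was high for Itgb8 (95.4, the others 80.2 to 82.0) and Pdlim4 (15.5, the others 11.5 to 11.8), and animal 4 was low for Nrp1 (625, the others 782 to 810) and Pecam1 (304, the others 372 to 383). In CD4, animal 1 was high for Ikzf4 (154, the others 59.0 to 69.1), Tnfrsf1b (193, the others 55.3 to 71.1) and Ptprv (4.23, the others 2.26 to 2.60) and low for Pim1 (360, the others 630 to 647). Animal 2 in CD4 was low for Icos (185, the others 451 to 478) and high for Thrb (121, the others 0 to 13.8). The subsets did not overlap in any of these genes except Pecam1 and Thrb, which were not called.

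The Treg minus CD4 difference differed between genotypes in 14 genes by limma's test of that difference. It was smaller or more negative in TRaGS for Bcl2 (-1.87 on the log2 scale), Smc4 (-0.86), mt-Nd4 (-0.69), Klf3 (-1.01), Myo6 (-2.71), Rps14 (-1.02), Resf1 (-1.01), Gpr83 (-2.36), Kbtbd11 (-1.20), Foxp1 (-0.85), Trib2 (-1.23) and Ms4a4b (-0.81). It was larger in TRaGS for Vim (1.34) and Ccr2 (2.66). As background, Foxp1 and Klf3 keep naive T cells quiescent, and Ccr2 and Vim are high in memory T cells. A shift between these states was not tested over the 14 genes.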

How the results depend on the processing

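Of 2535 values of single genes under the alternatives, 2328 kept direction and call, 178 lost the call and 10 gained it. Of the 109 named genes that were called, 71 kept the call in all 20 alternatives, 25 lost it in 1 to 5 and 13 in 6 or more, and 0 reversed. The number of called genes (578) was 314 with no filter on low genes and 351 with all 16 libraries in 1 fit. It was 349 without animal 1, 410 without animal 2, 444 without animal 3 and 352 without animal 4. Without the pairing, that is with no replicate block, it was 382, all among the 578, of which 184 were lower in Treg. Same-animal deviations hardly correlated (0.03, 0.03, -0.01 and 0.02), and the fit with the block had infinite prior degrees of freedom. The part of the pairing in the drop from 578 to 382 was not tested. DESeq2 called 795 genes, but on simulated data 19.3% of its calls were false. Genes higher in Treg (293) were 150 without the filter, 583 in the deposited tables, 195 with all 16 libraries and 159 (without animal 4) to 209 without an animal, with 177 without animal 1. Genes lower (285) were 164, 150, 156 and 172 (without animal 1) to 235 in the same settings. The genes with the same sign in TRaGS (556) numbered 339 to 433 without an animal, out of fewer calls, with 341 without animal 4. Those that differed between genotypes (14) numbered 9 without TRaWT animal 1 and 29 without TRaGS animal 4. The share of reads in other-cell markers differed by -0.0225 to -0.00877 percentage points without an animal, the latter without animal 3.

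Reversed directions were limited to genes that were not called. Thra turned to 0.063 with upper-quartile factors, 0.0475 with total reads, 0.205 in the deposited tables, 0.05995 with quantile normalisation and 0.00737 with all 16 libraries, and lay between -0.273 (without animal 2) and 0.269 (without animal 3) when an animal was left out, with 0.0852 without animal 4. Pecam1 turned to 0.0442, 0.0285, 0.187 and 0.0825 in the first 4 of these and lay between -0.207 (without animal 2) and 0.192 (without animal 4), with 0.00593 without animal 3. Xbp1 turned to 0.128 in the deposited tables and 0.00414 with array weights, and lay between -0.291 and 0.247 without an animal, the latter without animal 2. Gzmm turned to -0.0688 with quantile normalisation, Hbb-bs to -0.521 without animal 2 (1.92 without animal 3), and mt-Nd4 to 0.0548 in the deposited tables. The cause was not tested. At this depth and n, limma recovered 51.6% of simulated 4-fold changes and 14.7% of 2-fold changes, so a gene that was not called may still differ.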
